A study of Oryctolagus cuniculus with 49 samples.

Results

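The genes described here encode integrin subunits and proteins of the actin cytoskeleton. Their RNA was sequenced from rabbit iris together with ciliary body, from unoperated eyes and from eyes in which lensectomy had been followed by insertion of an artificial lens. Members were chosen by gene symbol: integrin genes of the ITGA and ITGB series, alpha-actinins, ARPC subunits of the Arp2/3 complex, tropomyosins, moesin, ezrin, radixin, vinculin, talins, filamins, cofilins, profilins, VASP, zyxin, paxillin and numbered unconventional myosins. The pattern matched 67 of 12948 gene symbols, and these 67 genes were carried by 100 transcript rows, 19 of the genes having more than 1 transcript. It also took 4 genes that are named after integrins but are no integrin subunits (ITGBL1, ITGB1BP1, ITGB1BP2 and ITGB3BP). RefSeq's list of rabbit genes (mOryCun1.1), used for names alone, holds 20 further symbols of the pattern that are not among the members, and 2 of these, ITGAM and TPM3, stand in the authors' table under locus names.

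All animals were New Zealand white rabbits, with no genetic change named in the labels. Of the 26 libraries, 7 came from unoperated and 3 from operated eyes aged 5 weeks, another 3 from operated eyes aged 6.5 weeks, and 7 from unoperated and 6 from operated eyes aged 6 months. Each library was made from total RNA of iris together with ciliary body, so the values average over all cells of both tissues. Neither the time between surgery and sampling nor whether libraries share an animal is given in the sources used here. The p-values treat the 26 libraries as independent, and shared animals would break that assumption. The 5-week and 6.5-week operated eyes are together called juvenile operated eyes, and since the labels hold no unoperated eyes of 6.5 weeks, growth and surgery cannot be told apart in that group.

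Integrins are receptors made of an alpha and a beta chain that bind extracellular matrix or other cells and connect, through talin, vinculin, paxillin and zyxin, to actin filaments. The Arp2/3 complex starts new branches on existing filaments, profilin delivers actin monomers, cofilin severs old filaments, and tropomyosins coat filaments and set which myosins and other proteins may bind. In the iris and ciliary body this machinery works in the sphincter, dilator and ciliary muscles, in the bilayered epithelium, in the vessels and in resident or infiltrating immune cells.

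Values are FPKM, fragments counted per length of transcript and per number of mapped fragments, summed over the transcripts of a gene. Since FPKM is per transcript length, levels may be compared between genes. Read counts were not used here, so the depth of a library is unknown. The FPKM sum of a library lay between 412936 and 504202. In 8 of the 26 libraries the lens crystallin gene CRYAA exceeded 1000 FPKM. These were unoperated 5-week replicates 2, 4, 5 and 7, operated 5-week replicate 1, unoperated 6-month replicate 3 and operated 6-month replicates 1 and 3. The unoperated 5-week group, the baseline of the juvenile surgery comparison, held more of them than any other group. Of the 67 members, 60 exceeded 1 FPKM in every library of all 4 groups on which the table was filtered (juvenile operated, unoperated 5-week, unoperated 6-month and operated 6-month eyes). ITGAL passed that filter through operated eyes alone and ITGA10 through unoperated 5-week eyes alone, so for these 2 the direction was set by the filter. ITGA9 passed through the juvenile groups alone, so its direction with age was set in the same way. Values of these 3 are given as a description, and the counts below include them. Together the members made up 0.81% of the FPKM sum in unoperated 5-week eyes, 0.844% in unoperated 6-month eyes and 0.899% in operated 6-month eyes.

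At 6 months, 25 of the 67 genes rose and 19 fell after surgery, and in juveniles 29 rose and 13 fell. A gene is said to have risen or fallen where the difference of group means of log2(FPKM + 0.5), fitted with limma over all genes and libraries, had a Benjamini-Hochberg adjusted p under 0.05. Effects are given on this log2 scale with their standard error (±), and the scale understates the change of genes with low values. At 6 months 65.7% of the members changed, against 46.1% of all 12948 genes, with 37.3% higher against 16.0% and 28.4% lower against 30.1%. In juveniles 62.7% changed, against 37.3% of all genes, with 43.3% higher against 16.5% and 19.4% lower against 20.8%. The median effect was 0.17 for the members and -0.11 for all genes at 6 months, and 0.17 and -0.06 in juveniles.

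The libraries of the 2 sides did not overlap for 14 higher and 8 lower members at 6 months, where 8.15% and 12.8% of all genes separated in this way. In juveniles they did not overlap for 21 higher members (7.83% of all genes) and 5 lower members (7.87% of all genes). The 2 surgery comparisons share no library. In both, 23 members rose and 10 fell, 11 were called at 6 months alone and 9 in juveniles alone, 14 were called in neither, and none was called in opposite directions. The share of all genes called in both was not counted, so these joint counts have no background and describe the members only. The split of higher and lower calls depends on how libraries are scaled. With every library scaled to an equal FPKM sum, 19 members rose and 24 fell at 6 months and 25 rose and 19 fell in juveniles, because that scaling lowers the median effect of all genes by 0.14 and 0.12. With median-ratio scaling 29 rose and 13 fell at 6 months and 29 rose and 9 fell in juveniles. Of all genes called at 6 months, 34.8% were higher, against 19.1% with equal FPKM sums and 51.6% with median-ratio scaling, and in juveniles 44.3%, 24.9% and 50.3%. Measured from the median of all genes, the members' median was higher by 0.27 to 0.28 at 6 months and by 0.22 in juveniles under each scaling.

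**Figure D1:**
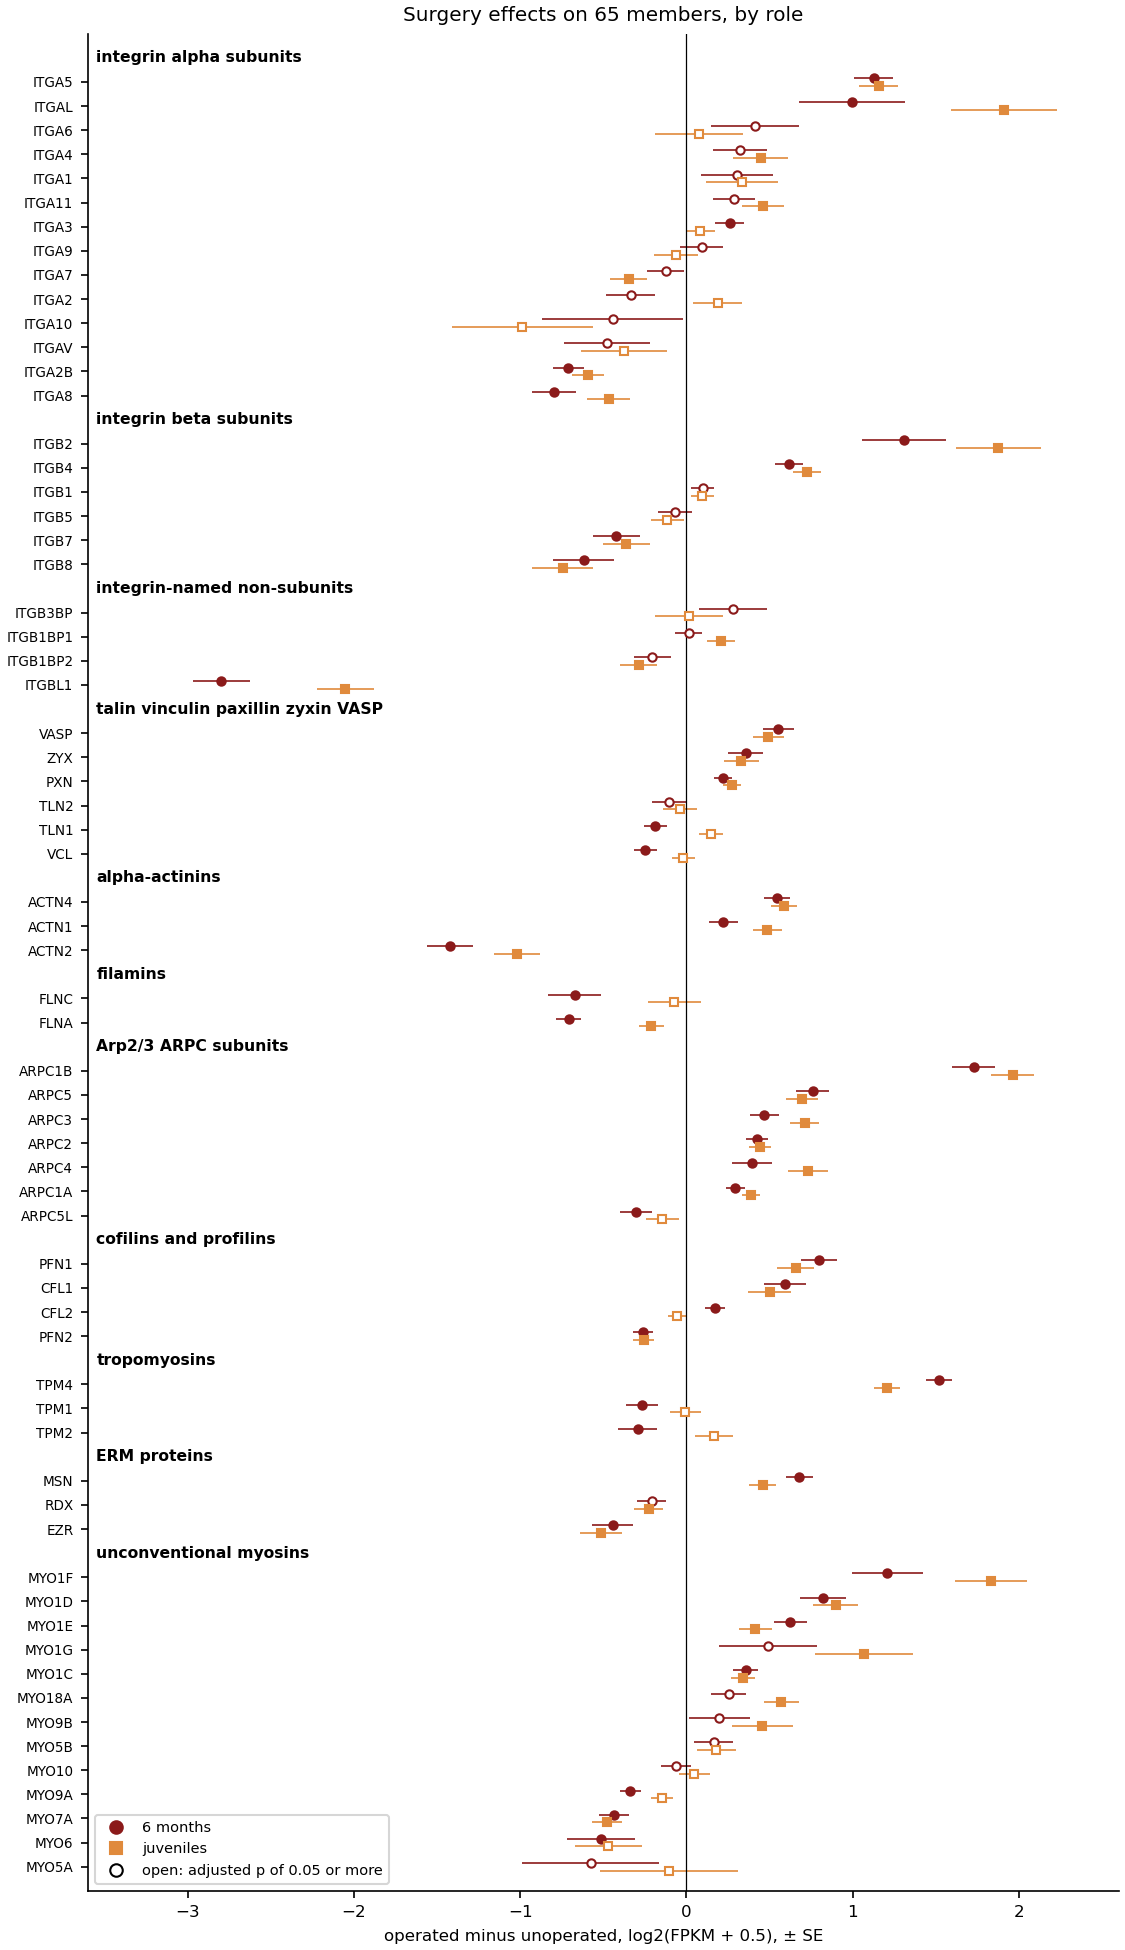
Effect of surgery on 65 of the 67 members, grouped by role. The horizontal axis is the operated minus unoperated difference of log2(FPKM + 0.5) with its standard error; circles are 6 months, squares are juveniles, and filled symbols have a limma adjusted p under 0.05. ITGBL1 lies farthest to the left and ARPC1B and TPM4 lie far to the right at both ages, while FLNA and FLNC lie to the left at 6 months and closer to 0 in juveniles. The side on which ITGAL and ITGA10 lie was set by the table's filter.

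Leukocyte marker genes moved with surgery and their level is given here once for all the results that follow. Of 14 leukocyte markers measured (PTPRC, TYROBP, CSF1R, CD68 and others), 11 rose and 1 fell at 6 months (against 16.0% and 30.1% of all genes) and 13 rose and 1 fell in juveniles (against 16.5% and 20.8%). Their summed level was 118 to 249 FPKM in unoperated 5-week eyes, 462 to 1072 FPKM in operated 5-week eyes and 458 to 539 FPKM in operated 6.5-week eyes. At 6 months it was 158 to 376 FPKM in unoperated and 409 to 986 FPKM in operated eyes, so the groups did not overlap at either age. PTPRC, the pan-leukocyte antigen CD45, passed the table's filter through operated eyes alone and was at 0 in 4 libraries, and the other 13 markers were above 0 in all 26. Smooth muscle markers moved the other way: 5 of 7 fell at both ages, against 30.1% of all genes at 6 months and 20.8% in juveniles. Their summed level was 738 to 1027 FPKM in unoperated and 363 to 634 FPKM in operated 6-month eyes, without overlap. In juveniles it was 643 to 878 FPKM in unoperated and 445 to 731 FPKM in operated eyes, and the sides overlapped. In bulk tissue, more cells of a type and more RNA per cell cannot be told apart, and the part of these cell types in the results was not tested.

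Among the 14 integrin alpha subunits, 3 rose and 2 fell at 6 months, against 16.0% and 30.1% of all genes. In juveniles 4 rose and 3 fell, against 16.5% and 20.8% of all genes. ITGAL is counted among those that rose. ITGA5, the alpha chain of the fibronectin receptor, had the smallest p among the alpha subunits at both ages and rose. It lay at 8.43–10.9 FPKM (median 9.25) in unoperated and 18.3–26.1 FPKM (median 21.5) in operated 6-month eyes. At 5 weeks the unoperated eyes held 9.95–12.8 FPKM (median 11.6), the operated eyes 38.3, 20.3 and 20.2 FPKM, and the 6.5-week operated eyes 30.3, 23.3 and 27.7 FPKM. Every operated library was above every unoperated library of its age, and the operated 5-week replicate 1 stood highest. The effect was log2 1.13 ± 0.12, adjusted p = 3.62e-08 at 6 months and log2 1.16 ± 0.12, adjusted p = 3.16e-08 in juveniles.

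ITGA2B, the alpha chain of the platelet fibrinogen receptor and the single platelet marker measured, fell at both ages. Its level was 6.82–8.25 FPKM (median 7.5) in unoperated and 3.77–4.87 FPKM (median 4.55) in operated 6-month eyes, without overlap (log2 -0.71 ± 0.10, adjusted p = 1.81e-06). In juveniles it went from 7.03–9.29 FPKM (median 8.56) to 5.74, 5.54 and 4.58 FPKM at 5 weeks and 4.6, 4.61 and 6.93 FPKM at 6.5 weeks (log2 -0.59 ± 0.10, adjusted p = 2.55e-05). ITGA8, whose heterodimer with ITGB1 binds nephronectin and is typical of smooth muscle and mesenchymal cells, also fell at both ages, from a mean of 6.17 to 3.32 FPKM at 6 months (log2 -0.80 ± 0.13, adjusted p = 2.99e-05) and in juveniles (log2 -0.47, adjusted p = 0.00679). ITGA3, a laminin-binding chain, rose at 6 months alone, from 13.5 to 16.4 FPKM (log2 0.26 ± 0.09, adjusted p = 0.0195), and ITGA11, a collagen-binding chain of fibroblasts, in juveniles alone (log2 0.46 ± 0.13, adjusted p = 0.00557). ITGA7, the laminin-binding chain of muscle, fell in juveniles (log2 -0.35 ± 0.11, adjusted p = 0.0169) and had log2 -0.13 at 6 months (adjusted p = 0.378). For neither ITGA3, ITGA11 nor ITGA7 did the difference between the 2 ages pass the test (adjusted p = 0.58, 0.728 and 0.58).

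The alpha chains called at neither age were ITGA1, ITGA2, ITGA6, ITGA9, ITGA10 and ITGAV. ITGA6, a laminin receptor of epithelium and vessels, and ITGAV, the chain of the vitronectin receptors, were well expressed, at 25.5 and 33.1 FPKM in unoperated 6-month eyes. They varied widely within groups: ITGAV lay at 21.4, 28.4 and 5.55 FPKM in the 3 operated 6.5-week eyes and ITGA6 at 39.3, 50.97 and 11.7 FPKM. Operated 6.5-week replicate 3 was the lowest of its group for both. Their 6-month effects were 0.41 ± 0.26 and -0.48 ± 0.26 on the log2 scale, and a difference of the size of its standard error was not detectable.

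Of the 6 integrin beta subunits, ITGB2 and ITGB4 rose and ITGB7 and ITGB8 fell at both ages. Among all genes 16.0% rose and 30.1% fell at 6 months, and 16.5% rose and 20.8% fell in juveniles. ITGB1, the shared partner of most alpha chains, was the most abundant integrin, at 249 ± 9.87 FPKM in unoperated (SD, n = 7) and 267 ± 23.7 FPKM in operated 6-month eyes (SD, n = 6), and was not called (log2 0.10 and 0.10, adjusted p = 0.253 and 0.282). The ratio of ITGA5 to ITGB1 within a library, which no scaling of libraries can move, was 0.0359–0.0436 in unoperated and 0.0753–0.1004 in operated 6-month eyes. In juveniles it was 0.0377–0.0531 in unoperated, 0.0754–0.136 in operated 5-week and 0.0807–0.128 in operated 6.5-week eyes. ITGB5, a vitronectin receptor chain and the beta subunit with the next highest level, at 89.5 FPKM in unoperated 6-month eyes, was not called at either age either.

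ITGB4 pairs with ITGA6 in the hemidesmosomes that anchor epithelia to laminin. It lay at 7.74–9.59 FPKM (median 8.24) in unoperated and 11.3–16.3 FPKM (median 12.5) in operated 6-month eyes. In juveniles the unoperated eyes held 8.26–10.5 FPKM (median 9.13), the operated 5-week eyes 14.5, 12.7 and 11.2 FPKM and the operated 6.5-week eyes 20.02, 17.6 and 18.7 FPKM. Operated and unoperated libraries did not overlap at either age (log2 0.62 ± 0.08, adjusted p = 2.26e-06 at 6 months and log2 0.72 ± 0.08, adjusted p = 2.79e-07 in juveniles), and the operated 6.5-week eyes were all above the operated 5-week eyes. ITGB8, a receptor chain known for activating latent TGF-beta, fell from a mean of 13.1 to 8.47 FPKM at 6 months (log2 -0.62 ± 0.18, adjusted p = 0.00816) and from 15.7 to 10.8 and 7.87 FPKM in juveniles (log2 -0.75 ± 0.18, adjusted p = 0.00247).

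Of the 4 leukocyte integrin subunits, ITGB2, the beta chain of LFA-1 and Mac-1, rose at both ages. ITGB2 lay at 4.07–14.04 FPKM (median 7.1) in unoperated and 13.7–25.7 FPKM (median 17.1) in operated 6-month eyes (log2 1.31 ± 0.25, adjusted p = 0.0002). In juveniles it went from 3.53–10.7 FPKM (median 4.78) in unoperated eyes to 17.6, 16.1 and 43.4 FPKM at 5 weeks and 17.1, 16.6 and 18.7 FPKM at 6.5 weeks (log2 1.88 ± 0.25, adjusted p = 3.03e-06). The juvenile sides did not overlap, while at 6 months the highest unoperated library exceeded the lowest operated one. ITGAL, the alpha chain of LFA-1, was listed through operated eyes alone and had means of 2.39 and 4.91 FPKM at 6 months and 1.17, 9.34 and 4.29 FPKM in the juvenile groups. Its values in the operated 5-week eyes were 3.85, 4.19 and 19.97 FPKM. The filter set its direction, so no test is given for ITGAL.

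The high library in that group, operated 5-week replicate 3, was also the highest for the leukocyte marker sum (1072 FPKM). The summed level of 4 T and NK cell markers was 111 FPKM there and at most 37.9 FPKM in any other library. These 4, of 8 listed, all passed the table's filter through operated eyes alone. Without operated 5-week replicate 3 ITGB2 still rose in juveniles, by log2 1.65 (adjusted p = 1.03e-05). ITGA4, a lymphocyte homing chain, rose in juveniles (log2 0.45 ± 0.16, adjusted p = 0.0345), a call that was lost without that library (log2 0.30, adjusted p = 0.143) and without any of 4 others. ITGB7, the beta chain that pairs with ITGA4 on lymphocytes, fell at both ages (log2 -0.42 and -0.36). ITGAM, the alpha chain of the complement receptor Mac-1, is carried under the locus name LOC100351865 and is no member by symbol: its mean was 0.91 FPKM in unoperated and 3.15 FPKM in operated 6-month eyes, and 0.501 and 2.81 FPKM in unoperated and operated juvenile eyes. ITGAM too passed the table's filter through operated eyes alone, so these means are given with no test.

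**Figure D2:**
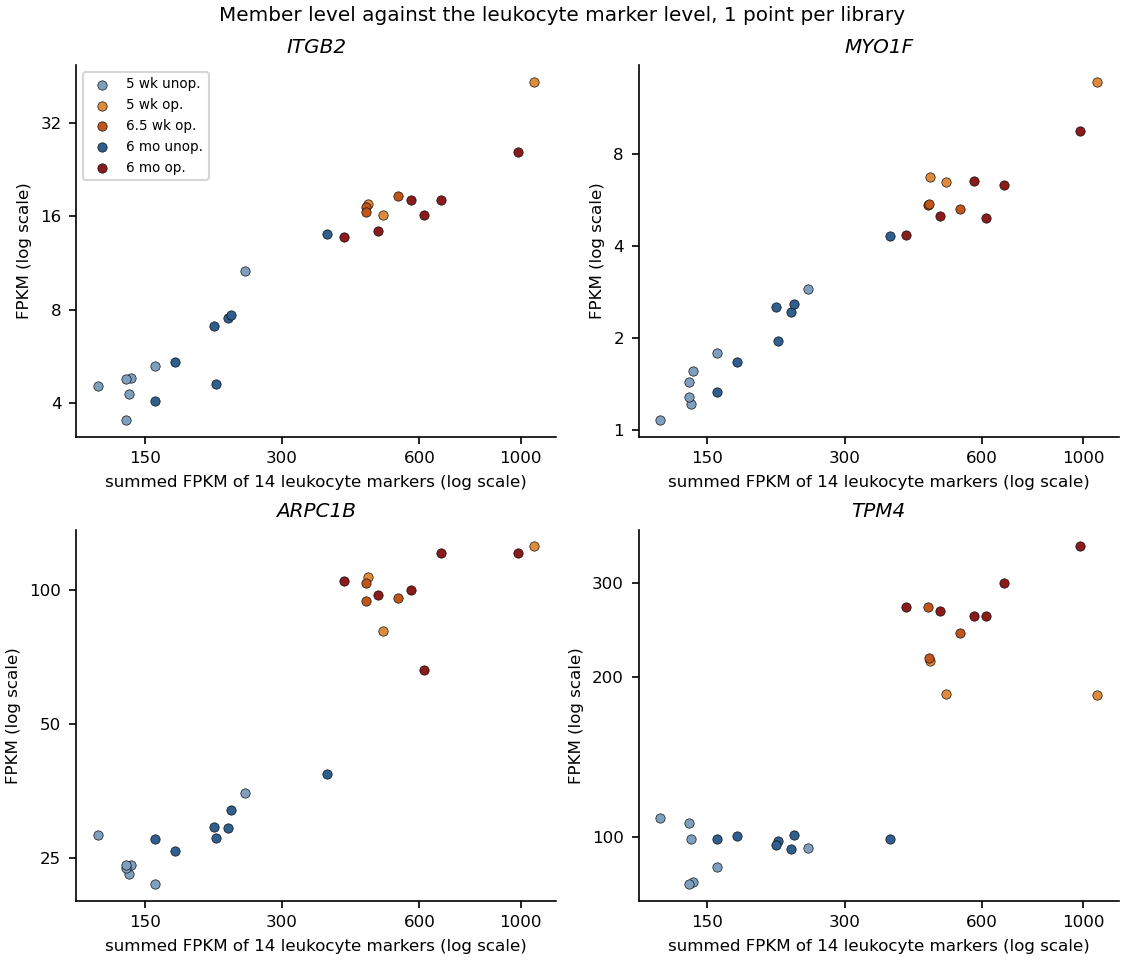
FPKM of ITGB2, MYO1F, ARPC1B and TPM4 against the summed FPKM of 14 leukocyte markers, both on log axes, 1 point per library and 1 colour per group. Within the unoperated groups the library with the highest marker sum is also the highest for ITGB2, MYO1F and ARPC1B, whereas TPM4 lies between 81.5 and 108 FPKM in all unoperated libraries.

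A related group of 4 genes carries integrin names without encoding subunits. ITGBL1, a secreted protein with integrin-like EGF repeats, had the largest effect of any member at either age and fell. It lay at 19.9–28.2 FPKM (median 24.5) in unoperated and 2.16–4.52 FPKM (median 2.92) in operated 6-month eyes. The unoperated 5-week eyes held 13.7–23.4 FPKM (median 20.8), the operated 5-week eyes 3.94, 7.75 and 3.87 FPKM and the operated 6.5-week eyes 2.67, 5.53 and 3.72 FPKM. All 12 operated libraries were below all 14 unoperated libraries. The effect was log2 -2.80 ± 0.17, adjusted p = 4.42e-12 at 6 months and log2 -2.05 ± 0.17, adjusted p = 1.31e-09 in juveniles, a fall to about 0.144 and 0.241 times the unoperated level on the log2(FPKM + 0.5) scale. ITGB1BP1, which binds the tail of the beta-1 chain, rose slightly in juveniles (log2 0.21 ± 0.08, adjusted p = 0.0492), and ITGB1BP2 (melusin), a muscle protein that binds the same tail, fell slightly, from 3.35–4.57 FPKM (median 3.81) to 3.04, 3.2 and 3.38 FPKM at 5 weeks and 3.06, 3.6 and 2.39 FPKM at 6.5 weeks (log2 -0.29 ± 0.11, adjusted p = 0.044). Neither passed the test at 6 months (log2 0.01 and -0.20), and ITGB3BP, a kinetochore protein that stayed at 0.91 to 2.84 FPKM, passed at neither age.

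Of the 6 proteins that link integrins to actin, VASP, ZYX and PXN rose at both ages, TLN1 and VCL fell at 6 months alone, and TLN2 was not called. The shares of all genes were 16.0% higher and 30.1% lower at 6 months, and 16.5% and 20.8% in juveniles. VASP, which elongates filaments at adhesions, lay at 28.3–44.01 FPKM (median 38.98) in unoperated and 50.2–71.2 FPKM (median 54.1) in operated 6-month eyes, and at 30.9–42.1 FPKM (median 33.6) in unoperated 5-week eyes against 51.6, 42.5 and 48.6 FPKM and 51.8, 43.3 and 54.2 FPKM in operated eyes of 5 and 6.5 weeks. No operated library overlapped with the unoperated libraries of its age (log2 0.55 ± 0.09, adjusted p = 4.7e-05 and log2 0.49 ± 0.09, adjusted p = 0.00022). PXN, the paxillin scaffold, changed less: 40.5–49.2 FPKM (median 42.6) against 48.1–58.02 FPKM (median 50.97) at 6 months (log2 0.22 ± 0.06, adjusted p = 0.00245), where the sides overlapped. In juveniles PXN went from 40.8–47.5 FPKM (median 44.5) to 53.99, 51.8 and 49.9 and 51.8, 52.9 and 58.9 FPKM without overlap (log2 0.27 ± 0.06, adjusted p = 0.000391). ZYX, the tension-sensitive zyxin, rose by log2 0.36 and 0.33 (adjusted p = 0.00723 and 0.0148). At 6 months operated replicates 4 and 6 held 138.5 and 129.0 FPKM of ZYX, and the other operated libraries 82.6 to 91.7 FPKM. The unoperated 6-month libraries held 68.9 to 83.7 FPKM, and no fit left out both replicates. The 6-month falls of VCL, vinculin (log2 -0.25 ± 0.07, adjusted p = 0.00601), and TLN1, talin (log2 -0.19 ± 0.07, adjusted p = 0.0355), were small, and both were lost under median-ratio scaling (log2 -0.15 and -0.09, adjusted p = 0.104 and 0.352).

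The alpha-actinins, which crosslink actin filaments into bundles, split by isoform. ACTN4 and ACTN1, the non-muscle forms, rose, and ACTN2, the form of the striated muscle Z-disc, fell. ACTN2 lay at 7.4–14.7 FPKM (median 11.1) in unoperated and 2.83–4.39 FPKM (median 3.56) in operated 6-month eyes (log2 -1.42 ± 0.14, adjusted p = 1.04e-08). In juveniles it went from 8.81–12.8 FPKM (median 10.6) to 4.54, 5.19 and 4.07 FPKM at 5 weeks and 5.12, 4.68 and 5.44 FPKM at 6.5 weeks (log2 -1.02 ± 0.14, adjusted p = 2.31e-06). The sides did not overlap at either age, and of the 2 striated muscle markers measured CKM fell at both ages (log2 -1.38 and -0.88) while MYLPF was not called (log2 -0.01 and -0.02). ACTN4 lay at 133–151 FPKM (median 145) in unoperated and 174–262 FPKM (median 203) in operated 6-month eyes, and at 126–154 FPKM (median 141) in unoperated against 209, 192 and 190.1 and 216, 199 and 249 FPKM in operated juvenile eyes. It rose without overlap at both ages (log2 0.54 ± 0.08, adjusted p = 5.91e-06 and log2 0.59 ± 0.08, adjusted p = 2.55e-06). ACTN1 rose by log2 0.22 at 6 months (adjusted p = 0.0414) and by log2 0.49 in juveniles (adjusted p = 0.000104).

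Of the filamins, large crosslinkers that also tether integrins, FLNA fell at both ages and FLNC at 6 months. FLNA lay at 182–235 FPKM (median 211) in unoperated and 111–149 FPKM (median 131) in operated 6-month eyes, with no overlap (log2 -0.71 ± 0.08, adjusted p = 5.65e-08). In juveniles the unoperated eyes held 169–208 FPKM (median 193) and the operated eyes 181, 164 and 142 FPKM at 5 weeks and 167, 184 and 160.5 FPKM at 6.5 weeks, so the sides overlapped (log2 -0.21 ± 0.08, adjusted p = 0.029). FLNA was the only member for which the surgery effects at the 2 ages differed by the interaction test (log2 -0.50 ± 0.11, adjusted p = 0.0164), a test that 1.09% of all genes passed. The interaction was lost without the 8 libraries rich in CRYAA (log2 -0.47, adjusted p = 0.226) and with the operated 5-week eyes alone as the juvenile group (log2 -0.46, adjusted p = 0.08).

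FLNC, the muscle filamin, went from 13.01 to 8.24 FPKM at 6 months (log2 -0.67 ± 0.16, adjusted p = 0.00137). In juveniles its effect was log2 -0.07 (adjusted p = 0.747), and the interaction gave log2 -0.60 (adjusted p = 0.242). The falls of FLNA and FLNC ran beside the lower smooth muscle marker level given above, and their relation was not tested.

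Of the 7 ARPC subunits of the Arp2/3 complex, 6 rose at 6 months and in juveniles, against 16.0% and 16.5% of all genes, and ARPC5L fell at 6 months. The 6-month rise of ARPC4 was not called with equal FPKM sums (log2 0.25, adjusted p = 0.0705). With the leukocyte marker level as a covariate, ARPC1B alone of the 7 was called at either age. ARPC1B, the subunit form that predominates in blood cells, had the highest effect of any member on the log2(FPKM + 0.5) scale at both ages. As a ratio of mean FPKM it was 3.94 in juveniles, below those of MYO1F (4.48) and ITGB2 (3.99) and of ITGAL (5.803), whose direction the filter set. ARPC1B lay at 25.9–38.7 FPKM (median 29.1) in unoperated and 66.1–121 FPKM (median 102) in operated 6-month eyes. Unoperated 5-week eyes held 21.8–35.01 FPKM (median 24.04), operated 5-week eyes 107, 80.9 and 125 FPKM and operated 6.5-week eyes 104, 94.6 and 95.8 FPKM. All 12 operated libraries lay above all 14 unoperated ones (log2 1.73 ± 0.13, adjusted p = 1.64e-10 at 6 months and log2 1.96 ± 0.13, adjusted p = 1.98e-11 in juveniles). Its paralog ARPC1A, found in most tissues, rose much less, with log2 0.29 at 6 months (adjusted p = 0.000124) and 0.39 in juveniles (adjusted p = 4.65e-06).

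ARPC5 showed the same split against its paralog ARPC5L. ARPC5 lay at 42.05–49.9 FPKM (median 44.5) in unoperated and 66.5–97.8 FPKM (median 75.7) in operated 6-month eyes, and at 37.4–52.04 FPKM (median 43.03) in unoperated against 71.8, 54.01 and 86.98 and 75.7, 63.4 and 70.05 FPKM in operated juvenile eyes. It rose without overlap at both ages (log2 0.76 ± 0.10, adjusted p = 9.52e-07 and log2 0.69 ± 0.10, adjusted p = 4.13e-06). ARPC5L went from 21.5 to 17.4 FPKM at 6 months (log2 -0.30 ± 0.10, adjusted p = 0.0129), a fall that was lost under median-ratio scaling (log2 -0.21, adjusted p = 0.0664), and in juveniles it had log2 -0.14 (adjusted p = 0.254). ARPC3, a subunit at the branch point, went from 59.1–65.2 FPKM (median 61.3) in unoperated juvenile eyes to 102, 87.1 and 122 FPKM at 5 weeks and 97.05, 95.5 and 108 FPKM at 6.5 weeks without overlap (log2 0.71 ± 0.09, adjusted p = 7.63e-07). At 6 months it lay at 57.9–72.1 FPKM (median 66.4) against 67.1–113 FPKM (median 96.1), with overlap (log2 0.47 ± 0.09, adjusted p = 0.000137). The structural core subunits ARPC2 and ARPC4 rose by log2 0.43 and 0.39 at 6 months and by 0.44 and 0.73 in juveniles.

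Of the 4 cofilins and profilins, CFL1 and PFN1, the non-muscle forms, rose at both ages, PFN2, the form enriched in neurons, fell at both, and CFL2, the muscle cofilin, rose at 6 months alone. For all genes the shares were 16.0% higher and 30.1% lower at 6 months, and 16.5% and 20.8% in juveniles. CFL1 was the most abundant member. Its level was 286–332 FPKM (median 319) in unoperated and 370.4–738 FPKM (median 412) in operated 6-month eyes, and 245–339 FPKM (median 283) in unoperated against 387, 352 and 470.4 and 443, 370.0 and 447 FPKM in operated juvenile eyes. The operated libraries were above the unoperated ones throughout (log2 0.59 ± 0.13, adjusted p = 0.000605 and log2 0.50 ± 0.13, adjusted p = 0.00351). Operated 6-month replicates 4 and 6 stood apart for CFL1, at 738 and 647 FPKM, against at most 413 FPKM in the other operated 6-month libraries. PFN1 lay at 177–228 FPKM (median 220.3) in unoperated and 291–533 FPKM (median 349) in operated 6-month eyes, and at 168–212 FPKM (median 181) in unoperated against 282, 249.9 and 355 and 310.4, 258 and 296 FPKM in operated juvenile eyes. It too rose without overlap (log2 0.80 ± 0.11, adjusted p = 3.02e-06 and log2 0.66 ± 0.11, adjusted p = 4.46e-05). The same replicates 4 and 6 were highest for PFN1, at 533 and 422 FPKM, against at most 351 FPKM in the other operated 6-month libraries. PFN2 fell, from 97.4–104 FPKM (median 99.8) to 77.9–89.5 FPKM (median 82.6) at 6 months without overlap (log2 -0.26 ± 0.06, adjusted p = 0.00109). In juveniles PFN2 was at 78.8–106 FPKM (median 87.01) in unoperated eyes and at 73.98, 75.5 and 64.1 and 77.6, 78.2 and 79.3 FPKM in operated eyes of 5 and 6.5 weeks, so the sides overlapped by 1 library (log2 -0.26 ± 0.06, adjusted p = 0.00162). CFL2 rose at 6 months by log2 0.17 (adjusted p = 0.0195) and had log2 -0.06 in juveniles (adjusted p = 0.489).

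Among the tropomyosins, TPM4 rose, with the smallest p of all members at both ages. This short non-muscle tropomyosin lay at 94.9–101 FPKM (median 98.99) in unoperated and 259.9–351 FPKM (median 268) in operated 6-month eyes. In juveniles the unoperated eyes held 81.5–108 FPKM (median 95.4), the operated 5-week eyes 214, 185 and 185 FPKM and the operated 6.5-week eyes 270.4, 217 and 241 FPKM. All 12 operated libraries were above all 14 unoperated ones, and the 14 unoperated libraries of both ages lay within 81.5 to 108 FPKM. The effect was log2 1.52 ± 0.08, adjusted p = 2.53e-13 at 6 months and log2 1.21 ± 0.08, adjusted p = 1.33e-11 in juveniles. TPM1 and TPM2, the main muscle tropomyosins, were called lower at 6 months and not called in juveniles. TPM1 lay at 306–469 FPKM (median 372) in unoperated and 268–408 FPKM (median 297) in operated 6-month eyes, with overlap (log2 -0.27 ± 0.09, adjusted p = 0.0221), and had log2 -0.01 in juveniles (adjusted p = 0.962). TPM2 lay at 299–403 FPKM (median 316) in unoperated and 214–337 FPKM (median 298) in operated 6-month eyes (log2 -0.29 ± 0.12, adjusted p = 0.0409), and had log2 0.17 in juveniles (adjusted p = 0.274). The 6-month falls of both were lost under median-ratio scaling (log2 -0.17 and -0.19, adjusted p = 0.128 and 0.196). TPM3, carried under the locus name LOC100351420 and no member by symbol, rose by log2 0.57 at 6 months and 0.38 in juveniles.

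**Figure D3:**
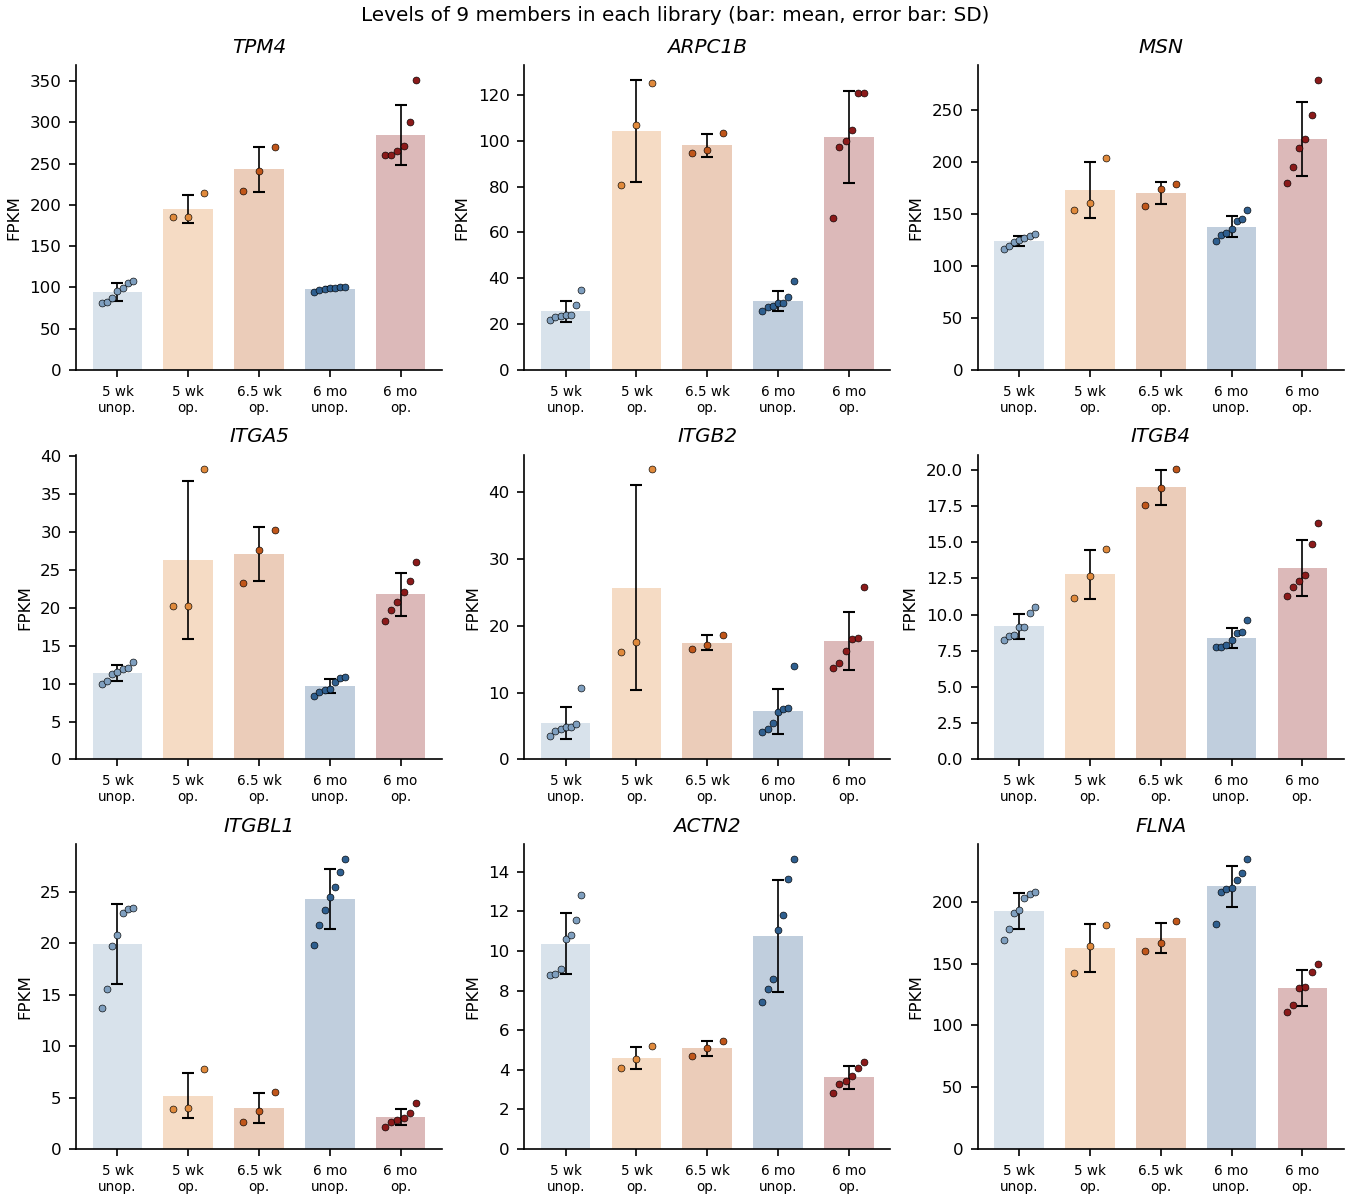
FPKM (vertical axis, from 0) of 9 members in the 26 libraries, by group; points are libraries, bars the group mean and error bars the SD. TPM4, ARPC1B, ITGA5 and ITGB4 lie higher in operated eyes of both ages without overlap, and ACTN2 and ITGBL1 lie lower.

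TPM1 is carried by 7 transcript variants, whose separate FPKM are estimates of how the reads divide. Their split differed between groups more than the gene total did. The variant named X8 lay at 116–196 FPKM (median 133) in unoperated and 3.63–67.9 FPKM (median 24) in operated 6-month eyes. In juveniles it lay at 53.3–149 FPKM (median 69.01) in unoperated eyes and at 28.02, 6.19 and 17.6 FPKM and 28.3, 42.7 and 4.14 FPKM in operated eyes of 5 and 6.5 weeks. Its values in operated and unoperated eyes did not overlap at either age. On average X8 made up 38.5% of TPM1 in unoperated and 8.48% in operated 6-month eyes, and 21.6%, 5.43% and 5.98% in unoperated 5-week, operated 5-week and operated 6.5-week eyes. X5 took 17.8% in unoperated and 30.02% in operated 6-month eyes, and X11 took 7.31% and 16.7%. The lowest share of X11 was 0.216% in unoperated 5-week and 0.199% in unoperated 6-month eyes, each below 1 FPKM. X11 therefore passed the table's filter through operated eyes alone, and the filter set its direction. Since X8 was chosen after its values were seen and neighbouring variants share most of their sequence, these shares are given with no test. In unoperated 5-week replicate 5, for example, X8 was at 149 FPKM and X11 at 0.80 FPKM, the highest and the lowest values of that group.

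**Figure D4:**
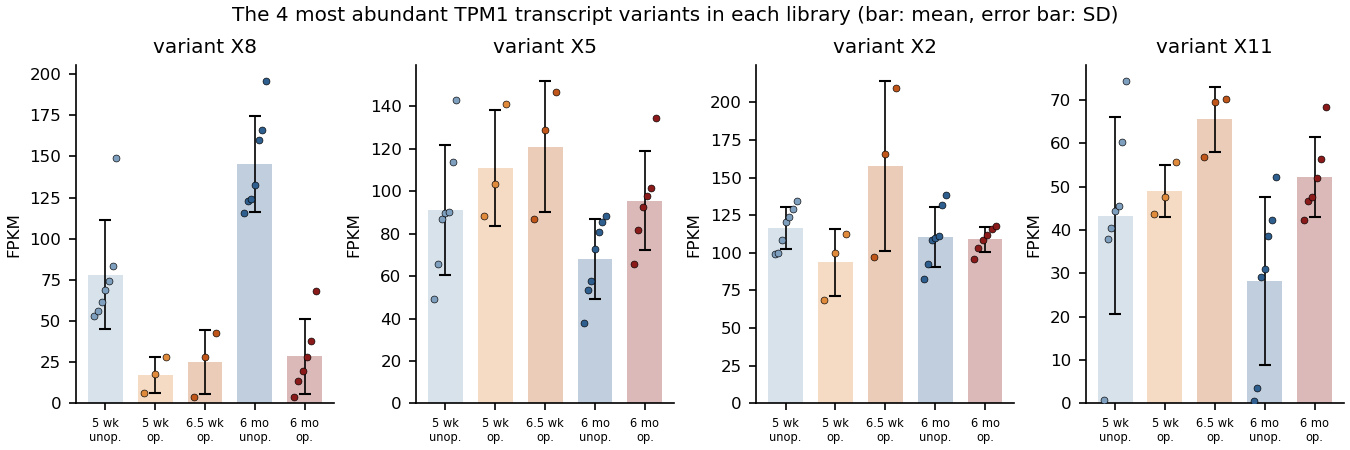
FPKM (vertical axis, from 0) of the 4 most abundant TPM1 transcript variants, by group; points are libraries, bars the group mean and error bars the SD. The TPM1 variant X8 spans 116–196 FPKM in the 6-month eyes without surgery and 3.63–67.9 FPKM in those with it, while X2 overlaps between them. The side on which X11 lies was set by the table's filter.

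The ERM proteins moor actin filaments to the cell membrane. MSN, moesin, predominates in leukocytes and endothelium, and EZR, ezrin, in epithelia. MSN lay at 124–153 FPKM (median 136) in unoperated and 179–279 FPKM (median 217) in operated 6-month eyes, and at 117–130.2 FPKM (median 125) in unoperated against 154, 160.3 and 203 and 178, 174 and 158 FPKM in operated juvenile eyes. It rose without overlap at both ages (log2 0.68 ± 0.08, adjusted p = 4.13e-07 and log2 0.46 ± 0.08, adjusted p = 9.69e-05). EZR fell at both: 20.1–27.9 FPKM (median 23.9) in unoperated against 12.5–24.5 FPKM (median 18.1) in operated 6-month eyes (log2 -0.44 ± 0.13, adjusted p = 0.00558), with overlap. Unoperated juvenile eyes held 20.9–26 FPKM (median 24.1) of EZR and operated juvenile eyes 18.5, 15.6 and 17.4 FPKM at 5 weeks and 12.8, 14.7 and 21.8 FPKM at 6.5 weeks (log2 -0.51 ± 0.13, adjusted p = 0.00218). RDX, radixin, fell in juveniles (log2 -0.23 ± 0.09, adjusted p = 0.0406) and had log2 -0.21 at 6 months (adjusted p = 0.0516). Beside these, 6 of 10 endothelial markers rose and 1 fell at each age, and 6 of 9 ciliary epithelium markers fell at each age, with 2 rising at 6 months and 1 in juveniles. Of all genes 16.0% rose and 30.1% fell at 6 months, and 16.5% rose and 20.8% fell in juveniles. The part of these cell types in the result was not tested.

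Of the 14 unconventional myosins, actin motors of membranes, vesicles and cell projections, 4 rose and 3 fell at 6 months, against 16.0% and 30.1% of all genes. In juveniles 7 rose and 1 fell, against 16.5% and 20.8% of all genes. The 4 myosins that rose at both ages were all of class I. MYO1F, a myosin of leukocytes, lay at 1.33–4.31 FPKM (median 2.43) in unoperated and 4.34–9.54 FPKM (median 5.67) in operated 6-month eyes, and at 1.08–2.89 FPKM (median 1.43) in unoperated against 6.74, 6.47 and 13.7 and 5.46, 5.49 and 5.29 FPKM in operated juvenile eyes (log2 1.21 ± 0.21, adjusted p = 7.18e-05 and log2 1.83 ± 0.21, adjusted p = 3.3e-07). MYO1D lay at 4.03–6.22 FPKM (median 4.77) in unoperated and 8.07–10.6 FPKM (median 9.08) in operated 6-month eyes, and at 2.67–6.47 FPKM (median 5.72) against 7.95, 10.3 and 8.94 and 10.8, 10.7 and 10.1 FPKM in juveniles (log2 0.82 ± 0.14, adjusted p = 3.25e-05 and log2 0.90 ± 0.14, adjusted p = 1.3e-05). Neither gene overlapped between operated and unoperated eyes at either age. MYO1E, a myosin of podosomes and endocytosis, lay at 9.35–12.9 FPKM (median 10.8) in unoperated and 15.3–18.9 FPKM (median 16.7) in operated 6-month eyes without overlap (log2 0.62 ± 0.10, adjusted p = 1.75e-05), and rose in juveniles too (log2 0.41, adjusted p = 0.00185). MYO1C, a widely expressed form, rose by log2 0.36 and 0.34 (adjusted p = 0.000398 and 0.000763).

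Other myosins moved at a single age or fell. MYO1G, a lymphocyte myosin, rose in juveniles alone (log2 1.07 ± 0.30, adjusted p = 0.0061), with 1.33, 1.61 and 8.75 FPKM in the operated 5-week eyes, and by log2 0.69 without the high replicate 3 (adjusted p = 0.0229). MYO18A (log2 0.57 ± 0.11, adjusted p = 0.000148) and MYO9B (log2 0.46, adjusted p = 0.0499) also rose in juveniles, and their 6-month effects were log2 0.25 and 0.20. MYO7A, a myosin of pigmented epithelium and sensory hair cells, fell at both ages, from 10.99 to 8.03 FPKM at 6 months (log2 -0.43 ± 0.09, adjusted p = 0.000371) and in juveniles (log2 -0.48). Beside it 7 of 7 pigment cell markers fell at 6 months and 6 of 7 in juveniles, against 30.1% and 20.8% of all genes. The relation of these markers to MYO7A was not tested. MYO6, the motor that moves towards the minus end, and MYO9A fell at 6 months (log2 -0.52 and -0.34, adjusted p = 0.0417 and 0.000167), and MYO10, MYO5A and MYO5B were called at neither age.

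Within several families, paralogs moved apart, and ratios of members within a library show this free of any scaling between libraries. The ratio of ARPC1B to ARPC1A was 0.472–0.732 in unoperated and 1.11–1.61 in operated 6-month eyes, and 0.495–0.712, 1.41–2.06 and 1.43–1.73 in unoperated 5-week, operated 5-week and operated 6.5-week eyes. ARPC1B was therefore below ARPC1A in every unoperated library and above it in every operated library. ARPC5 to ARPC5L went from 1.71–2.42 to 3.45–6.43 at 6 months and from 1.73–2.52 to 3.31–4.53 and 3.28–3.902 in juveniles. TPM4 to TPM1 was 0.215–0.323 in unoperated and 0.735–1.17 in operated 6-month eyes, and 0.232–0.297, 0.592–0.663 and 0.527–0.628 in the juvenile groups. PFN1 to PFN2 was 1.81–2.25 against 3.51–6.75 at 6 months. ACTN4 to ACTN2, the non-muscle to the muscle actinin, was 9.69–19.6 against 42.1–92.6. MSN to EZR was 4.72–7.62 against 7.97–22.3. Operated and unoperated libraries did not overlap for any of these 6 ratios, at 6 months or in juveniles. CFL1 to CFL2 overlapped at both ages, with 5.58–7.26 in unoperated and 6.76–12.8 in operated 6-month eyes, and 5.16–8.704, 8.89–11.9 and 7.95–11.5 in unoperated 5-week, operated 5-week and operated 6.5-week eyes. The pairs were chosen after the values were seen, so the ratios carry no test, and reads of close paralogs can be exchanged by the authors' program.

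**Figure D5:**
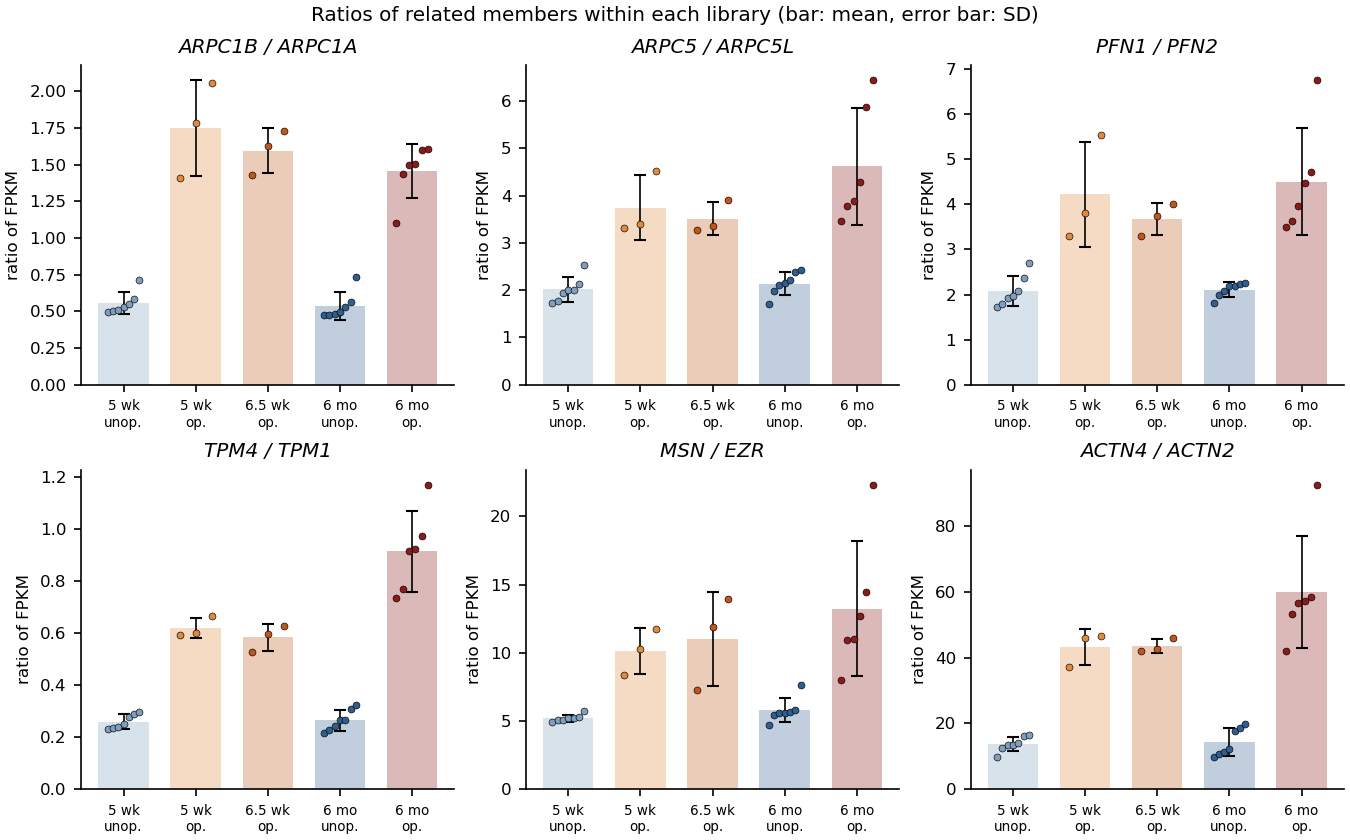
Ratio of FPKM between related members within a library (vertical axis, from 0), by group; points are libraries, bars the mean and error bars the SD. In each of these 6 pairs the operated eyes of both ages lie above the unoperated eyes; the ratio of ARPC1B to ARPC1A crosses 1.

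Several of the smaller surgery effects lost their call when 1 library was left out, most of them whichever of many libraries it was. At 6 months the call was lost without any 1 of 10 of the 13 libraries for MYO6 (log2 -0.52 to -0.45), of 6 for ACTN1 (log2 0.18 to 0.22), TLN1 (log2 -0.19 to -0.14) and TPM2 (log2 -0.30 to -0.22), without unoperated replicate 5 or operated replicate 6 for TPM1 (log2 -0.22 in both) and without operated replicate 4 for ITGB7 (log2 -0.34). In juveniles it was lost without any 1 of 10 of the 13 libraries for ITGB1BP1 and ITGB1BP2, of 9 for MYO9B, of 8 for ITGB7 and of 6 for FLNA (log2 -0.21 to -0.17) and RDX (log2 -0.23 to -0.12). The juvenile fall of ITGA7 was lost without operated 5-week replicate 3 or operated 6.5-week replicate 1 (log2 -0.29 and -0.28), and the rise of ZYX without operated 5-week replicate 1 (log2 0.28). With equal FPKM sums the 6-month rises of ACTN1, CFL2, ITGA3, PXN and ZYX were lost as well (log2 0.07, 0.03, 0.12, 0.07 and 0.21). The same scaling ended the juvenile rises of ITGA4, ITGB1BP1, MYO9B and ZYX (log2 0.33, 0.08, 0.34 and 0.21). Without the 8 libraries rich in CRYAA the juvenile calls of ITGA11 (log2 0.32), ITGA8 (log2 -0.48), MYO1G (log2 1.11) and PFN2 (log2 -0.18) were lost (adjusted p = 0.193, 0.0723, 0.0534 and 0.0903). That subset has fewer libraries, above all unoperated 5-week ones, and the effects of ITGA8 and MYO1G were no smaller than in the full fit. With the operated 5-week eyes alone the juvenile calls of ITGB8 (log2 -0.51), MYO1C (log2 0.19) and MYO7A (log2 -0.29) were lost (adjusted p = 0.111, 0.142 and 0.0579). The remaining calls, 31 of 44 at 6 months and 26 of 42 in juveniles, held under each alternative that tested them, of scaling, filter, covariate, subset and left-out library other than the leukocyte covariate, TPM4, ARPC1B, MSN, ITGA5, ITGB4, ITGBL1 and ACTN2 among them.

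Of 160 other genes of the pathway measured, 58 rose (36.2%, against 16.0% of all genes) and 38 fell (23.8%, against 30.1%) at 6 months. In juveniles 65 rose (40.6%, against 16.5% of all genes) and 28 fell (17.5%, against 20.8%). These counts include 6 genes listed through operated eyes alone and 2 listed through unoperated eyes alone. The lists were chosen with earlier results of these data known, so the shares and medians here are a description and no independent evidence. Of 17 integrin ligands other than collagens and laminins, 11 rose (64.7%) and 3 fell (17.6%) at 6 months, with a median of log2 1.26 against -0.11 for all genes. In juveniles 12 of these ligands rose (70.6%) and 2 fell (11.8%), with a median of 0.97 against -0.06. Of 31 adhesion adaptors 8 rose (25.8%) and 7 fell (22.6%) at 6 months and 12 rose (38.7%) and 5 fell (16.1%) in juveniles. Of 22 Arp2/3 core and activator genes 7 rose (31.8%) and 4 fell (18.2%) at 6 months and 8 rose (36.4%) and 5 fell (22.7%) in juveniles. Of 18 conventional myosins and contractile partners 3 rose (16.7%) and 8 fell (44.4%) at 6 months, and 6 rose (33.3%) and 5 fell (27.8%) in juveniles. Of the 3 actin genes measured, ACTB rose and ACTG2, the enteric smooth muscle form, fell at both ages (log2 0.52 and -0.98 at 6 months). The other, ACTA2, is not described here.

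The 4 pathway genes of smallest p at 6 months were TEAD4, TGFBI, RHOB and THBS1. TEAD4, a partner of YAP in transcription, went from 3.93 to 17.02 FPKM at 6 months (log2 1.96 ± 0.11, adjusted p = 8.68e-13) and rose in juveniles (log2 1.76). TGFBI, a matrix protein that integrins bind, went from 23.4 to 104 FPKM (log2 2.09 ± 0.16, adjusted p = 2.81e-10), and THBS1, thrombospondin, from 4.196 to 38.9 FPKM (log2 3.07 ± 0.24, adjusted p = 4.94e-10). RHOB, an early-response gene, went from 57.2 to 144 FPKM (log2 1.31 ± 0.10, adjusted p = 4.55e-10). In juveniles the same list was headed by TEAD4, TGFBI, RHOB and VWF, the ligand of platelet receptors, which went from 48.5 to 164 FPKM (log2 1.75, adjusted p = 8.97e-10).

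Between 5 weeks and 6 months, unoperated eyes differed in 14 of 67 members, or 20.9%, against 20.8% of all genes. With age 9 members rose (13.4%, against 11.4% of all genes) and 5 fell (7.46%, against 9.46%), shares near those of all genes. The age comparisons use the same libraries as the surgery comparisons and are no separate evidence on them. The highest rise was that of TPM2, from 205–287 FPKM (median 243) at 5 weeks to 299–403 FPKM (median 316) at 6 months without overlap (log2 0.45 ± 0.11, adjusted p = 0.00522). ACTN1 (log2 0.34 ± 0.08, adjusted p = 0.00615) and ARPC1A (log2 0.28 ± 0.05, adjusted p = 0.000528) rose without overlap too, and ARPC4, ITGB5, ZYX, VCL, CFL2 and MYO1C rose with overlap, by log2 0.23 to 0.36. The tenascin receptor chain ITGA9, whose direction with age the filter set, lay at 1.32–2.03 FPKM (median 1.81) at 5 weeks and 0.87–1.19 FPKM (median 0.98) at 6 months and is given with no test. ITGA7 (log2 -0.50 ± 0.11, adjusted p = 0.00214) and MYO7A (log2 -0.43 ± 0.09, adjusted p = 0.0012) fell without overlap. ITGA2, a collagen receptor chain, and MYO1E fell as well (log2 -0.41 and -0.30). None of the 14 calls held under every alternative analysis, and without the 8 libraries rich in CRYAA 3 members rose (4.48%, against 2.15% of all genes) and 1 fell (1.49%, against 2.47%), 5.97% in all against 4.63% of all genes. Of all genes called for age, 54.6% were higher, against 34.6% with equal FPKM sums and 38.9% with upper-quartile scaling, under each of which 5 members rose and 5 fell. Leaving out some 1 library ended the call of 6 members: VCL without unoperated 5-week replicate 2 (log2 0.19), MYO1C without unoperated 5-week replicate 2 or unoperated 6-month replicate 1 (log2 0.20 in both), and ARPC4, ITGA2, ITGB5 and MYO1E without any of 5 to 9 libraries. Leaving out unoperated 5-week replicate 1 or 7 or unoperated 6-month replicate 1 left 3 members that fell.

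In operated eyes, 16 of 67 members, or 23.9%, differed between juvenile and 6-month eyes, against 15.7% of all genes. Of these 8 rose (11.9%, against 5.88%) and 8 fell (11.9%, against 9.78%). ITGA9, whose direction with age the filter set, is counted among those that fell and is given with no test. The operated juvenile group joins 2 ages, and the time since surgery may differ between groups. CFL2 rose most firmly, from 41.3 to 56.8 FPKM without overlap (log2 0.46 ± 0.06, adjusted p = 1.88e-05), followed by TPM4 (log2 0.38 ± 0.08, adjusted p = 0.00204) and MSN (log2 0.37 ± 0.09, adjusted p = 0.00472). ITGA2 fell, from 2.66 to 1.11 FPKM (log2 -0.94 ± 0.15, adjusted p = 0.00019), and so did FLNA (log2 -0.36) and FLNC (-0.56). Only ITGA2, CFL2 and FLNA kept their call under each of the same alternatives that tested them, and ITGA2 was not tested at a mean of 5 FPKM. The number called fell to 10 without operated 5-week replicate 2 or operated 6.5-week replicate 2 and to 9 without operated 6-month replicate 4. The call of ZYX was lost without operated 6-month replicate 4 or 6 (log2 0.29 and 0.31), and those of ARPC1A, FLNC, ITGB5, MYO1C, MYO9A and PFN1 without any of 4 to 9 libraries. With equal FPKM sums 4 members rose and 16 fell, where of all genes called 14.2% were higher against 37.5% in the fit reported and 51.8% with median-ratio scaling.

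Operated eyes of 6.5 and 5 weeks differed in none of the 67 members by limma, where 0.0154% of all genes were called, and 8 members (11.9%) had an unadjusted p under 0.05, near the 10.3% of all genes. With 3 libraries on each side, small differences were not detectable. ITGB4 was 14.5, 12.7 and 11.2 FPKM at 5 and 20.02, 17.6 and 18.7 FPKM at 6.5 weeks without overlap (log2 0.54, adjusted p = 0.135).

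With the leukocyte marker level added to the model as a covariate, an alternative chosen after the data were seen, fewer members were called. Since that level itself differs between operated and unoperated eyes without overlap, the covariate and surgery cannot be fully told apart. At 6 months 7 members rose (10.4%, against 6.80% of all genes) and 5 fell (7.46%, against 8.12%), and in juveniles 4 rose (5.97%, against 3.38%) and 1 fell (1.49%, against 2.53%). The covariate lowered the share called among all genes too, from 46.1% to 14.9% at 6 months and from 37.3% to 5.92% in juveniles, where 17.9% and 7.46% of the members were called. TPM4 had log2 1.47 at 6 months (adjusted p = 4.14e-08) and 1.14 in juveniles (adjusted p = 5.23e-05), ITGA5 1.12 and 1.15, ARPC1B 1.25 and 1.33, ITGB4 0.83 and 1.01, and ITGBL1 -2.70 and -1.92, and all of these calls held. MSN had log2 0.38 at 6 months (adjusted p = 0.024) and 0.06 in juveniles (adjusted p = 0.877). Of the other ARPC subunits, ARPC1A had log2 0.24 and 0.31, ARPC2 0.23 and 0.18, ARPC3 0.34 and 0.54, ARPC4 0.36 and 0.68, and ARPC5 0.35 and 0.15, at 6 months and in juveniles. None of these was called (adjusted p = 0.0534 to 0.654). The leukocyte genes ITGB2 and MYO1F had log2 -0.14 and -0.06 at 6 months and were no longer called.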

How the data were processed

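RNA sequencing of iris with ciliary body gave 1 deposited table of FPKM for 16725 transcripts in 26 libraries. The authors deposited FPKM per transcript. The submitters' processing notes name RSEM 1.2.12, Bowtie2 2.2.5 and HISAT2 2.0.4 (also HISAT), without their roles, and the sources used here give neither genome build nor annotation. In at least 1 of 4 groups, each transcript was above 1 FPKM in every library, so genes low everywhere are not in the table. The 23 cornea libraries were not analysed here.

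FPKM was summed per symbol, and log2(FPKM + 0.5) of 12948 symbols was fitted with limma 3.58.1 (R 4.3.3) as 1 model of all groups, with trend and robust moderation and without a covariate. A filter of at least 1 FPKM in 3 libraries removed 0 genes. Adjusted p-values are by Benjamini-Hochberg over all genes of a comparison, with a threshold of 0.05. The model was tested on simulated data. Members and gene lists were chosen with earlier results of these data known. Per-library values are given for TPM4, ARPC1B and MSN, for up to 2 called members of smallest p in each role and surgery comparison, and for the interaction; further genes with per-library values were added after their values were seen. Other pathway genes are the 4 of smallest p per comparison, with ACTB and ACTG2 added after their values were seen. Alternatives covered the pseudocount, filters, scaling, covariates, moderation, the most abundant transcript, subsets and each library left out. FPKM gives no depth, so no counting interval can be given, and reads of close paralogs may be exchanged. The values of 2 members and 1 pathway list are not reported here.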

Additional observations from a re-analysis of the deposited data

Results flagged for a closer look

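Of 195 pairs of a member and a group with 6 or 7 libraries, 13 had a library far from the others, its gap to the nearest being a large part of the group's range. Chance flags about 1 in 20 groups, and no cause was tested.

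Unoperated 5-week replicate 6 was high for ITGB2 (10.66 FPKM, the next library 5.28), ITGAL (2.59 FPKM, the next 1.25), MYO1F (2.89 FPKM, the next 1.79) and VASP (42.08 FPKM, the next 34.88). Unoperated 6-month replicate 7 was high for ITGB2 (14.04 FPKM, the next 7.68), MYO1F (4.31 FPKM, the next 2.58) and TLN1 (74.19 FPKM, the next 65.68). Operated 6-month replicate 4 was high for ITGB2 (25.72 FPKM, the next 18.09). These 3 libraries also had the highest leukocyte marker sums of their groups, at 249.37, 376.34 and 985.91 FPKM.

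Unoperated 5-week replicate 2 was low for ACTN1 (38.48 FPKM, the next 45.83). That library also held the highest level of the lens crystallin gene CRYAA, 16755.69 FPKM. Unoperated 5-week replicate 3 was high for TPM1 at 427.78 FPKM. Unoperated 6-month replicate 3 was low for VASP at 28.33 FPKM, and replicate 5 was low for ITGA6 at 15.08 FPKM. Operated 6-month replicate 3 was high for ITGA2 at 1.58 FPKM.

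For FLNA the surgery effects at 6 months and in juveniles differed by the interaction test of limma (log2 -0.50, adjusted p = 0.0164), with a larger fall at 6 months.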

How the results depend on the processing

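No paired analysis was possible because the labels give no replicate numbers that groups share. Numbers here follow accession order and name a library only.

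With the leukocyte marker level as covariate, chosen after seeing the data, 12 members were called at 6 months (7 higher, 5 lower), 5 in juveniles (4 higher, 1 lower) and 2 in the interaction (2 lower). Under it 10 called effects turned sign: at 6 months ITGAL (log2 -0.82), ITGB2 (-0.14) and MYO1F (-0.0617), and in juveniles CFL1 (-0.0388), ITGA4 (-0.0747), ITGA8 (0.12), ITGAL (-0.51), ITGB2 (-0.0518), ITGB7 (0.16) and MYO1G (-0.81). No other alternative turned the sign of a called effect. In juveniles 8 members fell without the CRYAA-rich libraries and 7 with operated 5-week eyes alone, where the interaction called 0 members in both cases.

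The age effect in unoperated eyes gave 4 members without the CRYAA-rich libraries (3 higher, 1 lower), 8 with lens and photoreceptor covariates (5 higher, 3 lower), 5 higher with equal FPKM sums or upper-quartile scaling, and 3 lower at a mean of 5 FPKM, a filter that leaves ITGA2 and ITGA9 out, or without the late-numbered 5-week libraries. In operated eyes it gave 4 higher and 16 lower with equal FPKM sums, 4 with the compared groups alone (2 higher, 2 lower), 7 with 6.5-week operated eyes alone (2 higher, 5 lower), 5 lower at a mean of 5 FPKM, where ITGA2 and ITGA9 are left out and MYO9A was not called (adjusted p = 0.0501), or with 5-week operated eyes alone, and 5 higher without the late-numbered libraries. For the other alternatives the cause was not tested.

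Leaving out 1 library at a time gave 40 to 45 members at 6 months (24 to 26 higher, 16 to 19 lower), 35 to 43 in juveniles (26 to 29 higher, 9 to 14 lower), 10 to 16 for age in unoperated eyes (7 to 11 higher, 3 to 5 lower), 9 to 16 in operated eyes (4 to 7 higher, 5 to 9 lower) and 1 to 3 for the interaction (1 to 3 lower: 2 without unoperated 6-month replicate 2, and 3, TLN1 among them, without operated 6-month replicate 3). Between 6.5 and 5 weeks 0 to 1 member was called in each direction (0 to 1 in all), ITGB4 higher without operated 6.5-week replicate 2 and MYO7A lower without replicate 3. The depth of the libraries is unknown, which limits what can be said of members near 1 FPKM.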

Other observations

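In level, the non-muscle cofilin CFL1 (384 FPKM, mean of the 5 group means) led the members, followed by the muscle tropomyosins TPM1 (358 FPKM) and TPM2 (289 FPKM), the profilin PFN1 (271 FPKM) and the integrin chain ITGB1 (258 FPKM). TPM4 (183 FPKM), the actinin ACTN4 (182 FPKM), FLNA (174 FPKM) and MSN (165 FPKM) came next, and TPM4 and ACTN4 lie closer than their spread between libraries.

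Of 160 other genes of the pathway, 2 were called in the limma interaction of surgery and age, where 1.09% of all genes were called. AMOTL2, an angiomotin family protein of the YAP axis, had log2 0.41 ± 0.08 (adjusted p = 0.0107). POSTN, the integrin ligand periostin, is counted as the other. It passed the table's filter through juvenile eyes alone, so its difference (log2 -1.58) is given as a description with no test. AMOTL2 was also higher in operated eyes of 6.5 than of 5 weeks (log2 0.69 ± 0.09, adjusted p = 0.000323).

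The laminin receptor chain ITGA7 is carried by several transcript variants. The variant X5 had a mean of 2.44 FPKM in unoperated 5-week eyes and 10.1 FPKM in unoperated 6-month eyes, while the gene total fell with age. Its values ranged from 0 to 6.87 FPKM and from 6.82 to 13.9 FPKM, overlapping by 1 library. How reads divide between variants is an estimate, this variant was chosen after its values were seen, and no test was made.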
